A study of Mus musculus with 6 samples.

Results

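Target genes of the transcription factor p53 were followed in cultured mouse colorectal tumour cells that carry an engineered p53 gene. The rule takes names and no measured values, although the names were picked with earlier results of these data known: it holds every probe set whose platform annotation gives the symbol of 1 of 10 well-known targets: Cdkn1a, Mdm2, Ccng1, Bax, Bbc3, Pmaip1, Zmat3, Plk2, Phlda3 and Gdf15. Of these 10, 8 genes had a probe set named to them alone, with 14 probe sets between them, out of 18193 named genes and 45101 probe sets in all. Bax and Gdf15 were not analysed here. All 8 measured genes passed the filter on dim probe sets through their brightest probe set. In all, 12 of the 14 probe sets passed, and the other 2, 1 each of Mdm2 and Plk2, lay under it.

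The cells are iKAP primary cultured cells, and the labels give a single culture number for both groups. iKAP is known as a mouse model of colorectal cancer that carries, among its engineered alleles, conditional null alleles of Apc and Trp53, recombined by a Cre that is driven by the gut epithelial villin promoter. All 6 arrays thus share these alleles. The labels name neither the alleles nor their recombination in this culture, and they give a tetracycline-free medium. One group of 3 arrays stably expresses GFP and the other 3 arrays are labelled as stably expressing an IRF2 open reading frame, both from a lentiviral vector. IRF2 belongs to the interferon regulatory factors, which bind DNA and control transcription, and the comparison addresses what its added expression changes in these cells. Whether the arrays of a group stand for separate cultures is not labelled; the p-values therefore speak only to how these arrays vary, and that variation may be technical.

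p53 is a DNA-binding transcription factor that is stabilised when DNA is damaged or growth is disturbed, and it switches on genes that halt the cell cycle, repair DNA or start cell death. Its binding sites are made of a pair of half-sites of like sequence, and many of its targets also answer to other factors, so that they can be transcribed in cells without p53. One target, Mdm2, encodes the ubiquitin ligase that removes p53 again and so closes a feedback loop. Loss of p53 is a common step in colorectal cancer. Trp53, the mouse gene of p53, was not analysed here.

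The gene that the labels name was checked first. The only Irf2 probe set read 65.4, 60.5 and 62.0 on the GFP control arrays and 37.0, 36.6 and 35.2 on the arrays labelled IRF2. It was lower where the label says it was added (log2 fold change -0.79, SE 0.06, limma adjusted p = 1.73e-07). Whether this probe set reads the added open reading frame, and whether the labels of the groups were exchanged, was not tested. Every direction below is that of the arrays labelled IRF2 against the GFP control arrays, and an exchange of labels would turn all of them. Among the markers, the epithelial keratin genes Krt8, Krt18 and Krt19 were bright, whereas Vil1, the gene of villin, lay under the filter in both groups (6.73 and 5.83 on average; the 3 tryptophan control probe sets, which no mouse transcript should fill, read 3.69 to 6.52). Of 7 epithelial markers tested, Krt8 (log2 fold change 0.50) and Krt18 (0.08) rose. The adhesion genes Epcam (-0.81) and Cdh1 (-0.75) fell, each by more than any p53 target among the members. The summed intensity of all 8 lay at 14251 to 14400 under GFP control and at 15836 to 15972 under the IRF2 label, with Krt8 at means of 3533 and 4999. Of the fibroblast markers, 1 of 5 tested rose and 1 fell (sums 137 to 149 and 144 to 154). limma called 0 of 3 immune and 0 of 2 endothelial markers, with 0 at an unadjusted p under 0.05; their sums were 142 to 158 and 141 to 157 for the immune markers and 43.9 to 45.7 and 45.1 to 50.1 for the endothelial ones. For the transferrin receptor the 3' probe set over the 5' one, a sign of RNA quality, was 3.61 to 3.78 under GFP control and 3.81 to 4.47 under the IRF2 label, and that of beta-actin was 0.996 to 1.02 over all 6 arrays. Under the filter lay 3 of 6 named immune markers (Ptprc, Itgam and Adgre1) and 3 of 5 endothelial ones (Pecam1, Tek and Emcn). Of these, all but Adgre1 had means within the range of the tryptophan controls. None of the markers was at 0, but no probe set was, the lowest intensity being 2.59. The part of these marker and RNA quality differences in the results below was not tested.

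The RefSeq transcription starts of the members were searched for the p53 half-site in the 250 bases before each start. Sites elsewhere, farther upstream or inside the genes, were not searched. The search took 9 starts of 6 members from the RefSeq table of GRCm38.p6 (Cdkn1a, Mdm2, Ccng1, Bbc3, Plk2 and Phlda3). Windows of Zmat3 and Pmaip1 were not analysed here. The half-site reads the same way on both strands, and it was matched with no mismatch allowed. It was found before 1 start each of Cdkn1a, Mdm2 and Ccng1, and 7.13% of all 32851 windows of this length hold it. These 3 windows are shown because they are the only windows searched for the members that hold a half-site. They belong to the member that fell most, to the feedback ligase and to the member that rose. Capitals mark the half-sites, and each sequence runs 5' to 3' up to the base before the start:
Cdkn1a, chr17:29090729-29090978, plus strand: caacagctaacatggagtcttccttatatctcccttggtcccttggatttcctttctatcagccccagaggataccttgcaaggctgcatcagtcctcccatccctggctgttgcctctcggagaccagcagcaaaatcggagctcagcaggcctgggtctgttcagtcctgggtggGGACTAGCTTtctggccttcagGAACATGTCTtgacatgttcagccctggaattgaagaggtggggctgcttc
Mdm2, chr10:117710759-117711008, minus strand: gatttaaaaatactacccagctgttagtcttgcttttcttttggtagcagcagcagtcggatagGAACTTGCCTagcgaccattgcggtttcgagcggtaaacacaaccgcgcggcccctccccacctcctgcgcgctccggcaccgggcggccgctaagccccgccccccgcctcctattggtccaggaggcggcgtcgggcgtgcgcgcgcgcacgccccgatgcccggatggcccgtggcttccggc
Ccng1, chr11:40755287-40755536, minus strand: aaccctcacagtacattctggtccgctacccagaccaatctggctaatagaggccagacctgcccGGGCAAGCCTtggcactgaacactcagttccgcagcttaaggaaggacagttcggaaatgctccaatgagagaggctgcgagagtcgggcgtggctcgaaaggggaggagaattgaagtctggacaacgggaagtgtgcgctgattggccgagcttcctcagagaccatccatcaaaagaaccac

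Cdkn1a had 2 half-site matches before 1 of its starts. They were GGACTAGCTT from base -73 to -64 and GAACATGTCT from base -51 to -42, with 12 bases between them. The window of its other start, chr17:29093519-29093768, held 0. The bases right after the second match, tgacatgttc, miss the half-site at 1 base and so were not marked. Which of these stretches form a p53 site was not tested. Only 0.259% of all windows hold 2 or more half-sites. Mdm2 and Ccng1 had 1 half-site each, GAACTTGCCT from base -186 to -177 and GGGCAAGCCT from base -185 to -176. The interferon regulatory factor motif, GAAA followed after 2 bases of any kind by GAAA and searched on both strands, was found before the start of Plk2 alone among the 6 members, and 2.98% of all windows hold it. The GC box GGGCGG was found before 7 of the 9 starts, of 5 members, against 32.7% of all windows. That share is per window and not per gene. The windows of Bbc3 all hold the GC box and overlap in part, so the 9 windows are not separate. None of these matches is a measured binding site. Of the 3 members with a half-site, Cdkn1a fell, Ccng1 rose and Mdm2 did not pass at gene level, as given below. A link between the matches and the changes was not tested.

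The p53 targets split: Cdkn1a, Pmaip1 and Zmat3 fell on the arrays labelled IRF2, Ccng1 rose by a small amount, and Mdm2, Bbc3, Plk2 and Phlda3 did not pass the test. In the test of 12795 genes, each read by its brightest probe set, 4 of the 8 passed at an adjusted p under 0.05, 1 higher and 3 lower. Over all genes tested, 36.3% passed, 16.5% higher and 19.8% lower. The share among the members, 50% of 8 genes, lies about 1 gene above what that background gives. Their median log2 fold change was -0.02, against -0.00070 over all genes tested, and it was above 0 after quantile normalization (0.0027) and in the mean of probe sets (0.0169). The median size of the change without its sign was 0.09 for the members and also 0.09 for all genes tested. Groups did not overlap for 6 of the 8 members, 2 higher and 4 lower, where 46.2% of all genes tested had groups that did not overlap, 22% higher and 24.2% lower. In RNA from whole cultures, fewer cells that express a gene and less RNA per cell cannot be told apart.

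**Figure D1:**
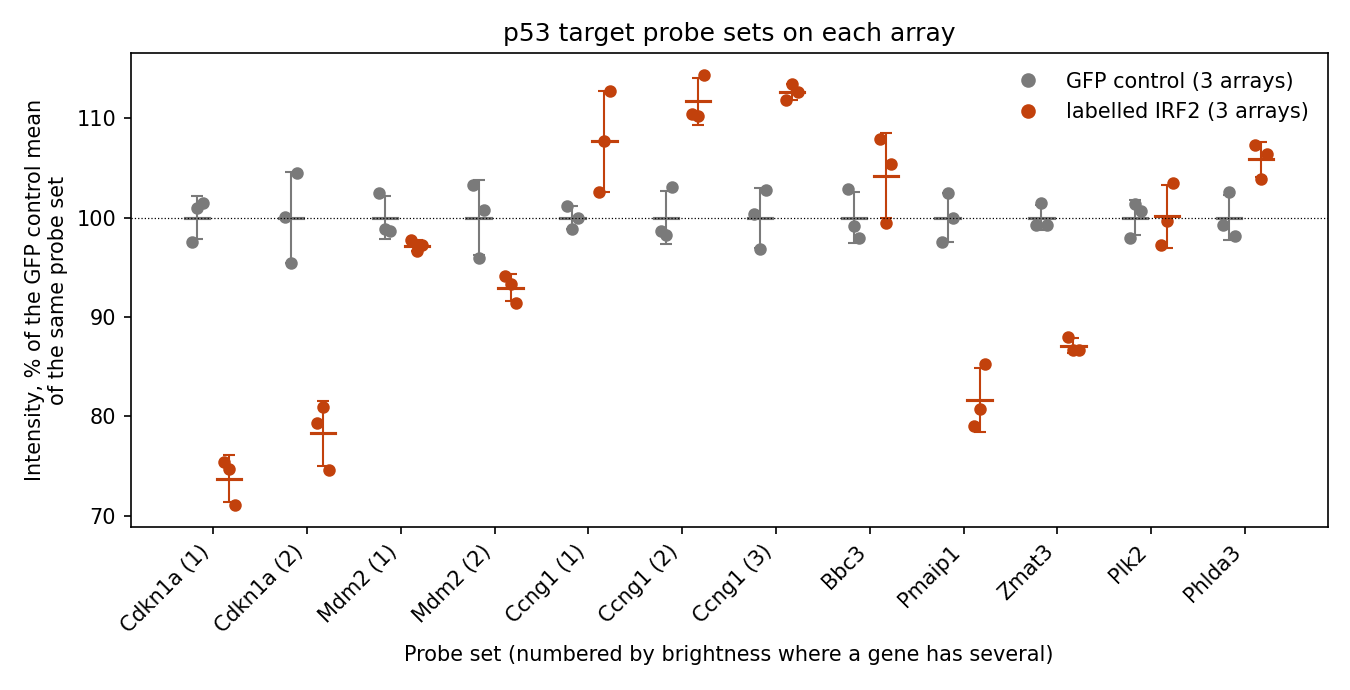
Intensity of each of the 12 p53 target probe sets above the filter on each of the 6 arrays, as a percentage of the mean of the 3 GFP control arrays of the same probe set; points are arrays, and bars are the mean and the SD of 3 arrays. Both Cdkn1a probe sets, Pmaip1 and Zmat3 lie below all of their GFP control arrays, the 3 Ccng1 probe sets lie above, and the groups of Bbc3 and Plk2 overlap.

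Among the targets that act on the cell cycle, Cdkn1a changed most. It encodes p21, the inhibitor of cyclin-dependent kinases through which p53 arrests cells in G1. Its brighter probe set read 254, 263 and 264 on the GFP control arrays and 196, 194 and 185 on the arrays labelled IRF2. The means were 260.4 ± 5.60 and 192 ± 6.13 (SD, n = 3 each), so that the intensity fell by 26.3% (log2 fold change -0.44, SE 0.04, adjusted p = 3.07e-07 in limma). All 3 arrays labelled IRF2 lay below all 3 controls, in 1 compact group. The other Cdkn1a probe set read 231, 220.0 and 241 against 183, 187 and 172, a log2 fold change of -0.35 (SE 0.04, adjusted p = 4.79e-05 in the test of 27022 probe sets), also without overlap. In size, 597 of the 12795 genes (4.67%) had a larger log2 fold change than Cdkn1a in either direction, and 261 of the genes that fell did so by more.

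Plk2, a polo-like kinase gene that p53 induces and that acts at the centrosome, had groups that overlapped. It read 420, 434 and 431 on the GFP control arrays and 416, 427 and 443 on the arrays labelled IRF2. Its log2 fold change was 0.0015 (SE 0.03, adjusted p = 0.979), with a 95% interval of -0.07 to 0.07, and its sign turned when GFP control replicate 1 (-0.01) or IRF2-labelled replicate 3 (-0.02) was left out. Its other probe set lay under the filter, at 6.99 ± 0.662 and 8.20 ± 1.22 (SD, n = 3 each), and had no test.

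Of the genes that feed back on p53, Ccng1 rose, and Mdm2 did not pass at gene level. Ccng1 encodes cyclin G1, which brings a phosphatase to the MDM2 protein. Its brightest probe set read 382, 373 and 377 on the GFP control arrays and 387, 407 and 425 on the arrays labelled IRF2, where the spread of the second group (SD 19.2) was wider than that of the first (SD 4.42). The log2 fold change was 0.11 (SE 0.04, adjusted p = 0.0277). This call was lost without the intensity trend (adjusted p = 0.104) and in 4 of the 6 fits on 5 arrays, namely without the replicate 2 or the replicate 3 array of either group (0.0692, 0.0764, 0.0762 and 0.137); over all alternatives the adjusted p ran from 0.00301 to 0.137. The other Ccng1 probe sets were both higher as well, with log2 fold changes of 0.16 and 0.17 (SE 0.04 each, adjusted p = 0.00448 and 0.00253 in the test of probe sets), and both passed under all 13 alternatives run for them. One read 215 to 225 under GFP control against 241 to 249.8 under the IRF2 label, and the other 209 to 222 against 242 to 245, with no overlap in either. The 3 probe sets read 1 gene in the same RNA and are not replicates of each other.

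Mdm2 read 321, 309.7 and 309 on the GFP control arrays and 306, 303 and 305 on the arrays labelled IRF2 in its brightest probe set. The 3 arrays labelled IRF2 were all slightly lower, yet the log2 fold change of -0.04 (SE 0.03, 95% interval -0.11 to 0.03) did not pass (adjusted p = 0.358). Its next probe set read 306, 284 and 299 against 279, 277 and 271, with a log2 fold change of -0.10 (SE 0.04) that passed in the test of probe sets (adjusted p = 0.0435) and was lost in 8 of its 13 alternatives, among them no filter (0.0743), quantile normalization (0.0746), no intensity trend (0.116) and 5 of the 6 fits on 5 arrays, all but the one without GFP control replicate 2 (adjusted p over all alternatives 0.0147 to 0.155). The third Mdm2 probe set, at 5.93 ± 0.375 and 6.23 ± 0.502 (SD, n = 3 each), had means within the range of the tryptophan controls and was not tested.

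Of the 2 measured targets that start cell death, Pmaip1 fell and Bbc3 did not pass. Pmaip1 and Bbc3 both encode BH3-only proteins, NOXA and PUMA, which bind and block the survival proteins of the BCL2 family. Pmaip1 read 538, 566 and 552 on the GFP control arrays and 436, 446 and 471 on the arrays labelled IRF2, without overlap. Its log2 fold change was -0.29 (SE 0.03, adjusted p = 5.16e-06), a fall by 18.3%. Bbc3 read 45.3, 43.7 and 43.1 against 47.5, 43.8 and 46.4, so that its groups overlapped, and its log2 fold change of 0.06 (SE 0.07, adjusted p = 0.538) had a 95% interval of -0.08 to 0.20. That interval holds no fall as large as that of Pmaip1. The difference between the changes of the 2 genes was not tested.

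The remaining 2 members act on messenger RNA and on growth signalling. Zmat3, a zinc finger RNA-binding protein gene that is a direct p53 target in mouse cells, read 100.3, 103 and 100.3 on the GFP control arrays and 88.9, 87.6 and 87.6 on the arrays labelled IRF2. Within each group the arrays lay close together and the groups did not overlap. The log2 fold change was -0.20 (SE 0.05, adjusted p = 0.00393), a fall by 12.9%. Phlda3, which encodes a pleckstrin homology domain protein that holds back AKT, read 286, 296 and 283 against 309.2, 299 and 307. The groups did not overlap, with the arrays labelled IRF2 higher, but the log2 fold change of 0.08 (SE 0.03, 95% interval 0.01 to 0.15) did not pass after adjustment (adjusted p = 0.065). It passed under quantile normalization (0.0316), in the mean of probe sets (0.0457) and without the replicate 2 GFP control array (0.0395), with a range over all alternatives of 0.0316 to 0.205.

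**Figure D2:**
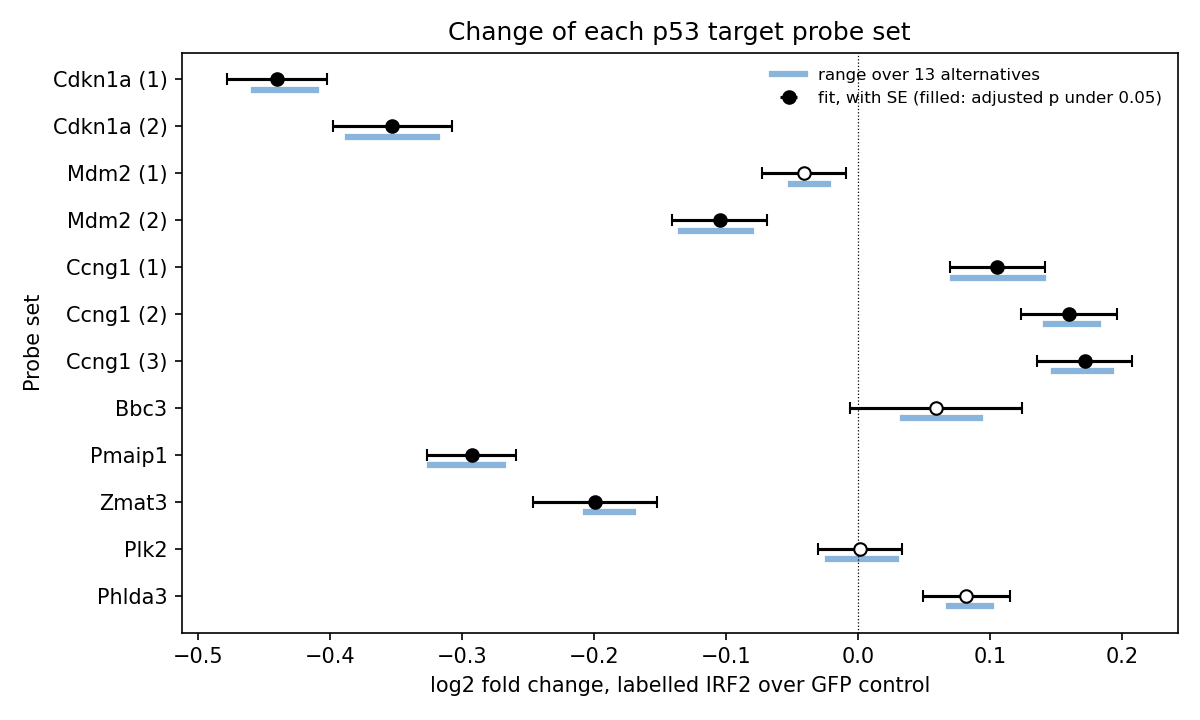
Log2 fold change (labelled IRF2 over GFP control) of each of the 12 p53 target probe sets in the test of 27022 probe sets, with the SE as black bars and filled points where the adjusted p was under 0.05; blue bars span the values under 13 alternatives. The Cdkn1a, Pmaip1 and Zmat3 bars stay below 0, the Ccng1 bars stay above it, and the Plk2 bar crosses it.

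When each probe set was tested on its own, 8 of the 12 probe sets passed, 3 higher (all of Ccng1) and 5 lower (2 of Cdkn1a and 1 each of Mdm2, Pmaip1 and Zmat3). Of all 27022 probe sets tested, 28.7% passed, 13% higher and 15.7% lower. Groups did not overlap for 10 of the 12, 4 higher and 6 lower, beside 40.5% of all probe sets tested (19.2% higher and 21.3% lower). The 12 probe sets come from 8 genes, so these counts give Ccng1, Cdkn1a and Mdm2 more than 1 vote. Between probe sets of a gene the sign was the same above the filter for Cdkn1a, Ccng1 and Mdm2, the 3 members with more than 1 such probe set.

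**Figure D3:**
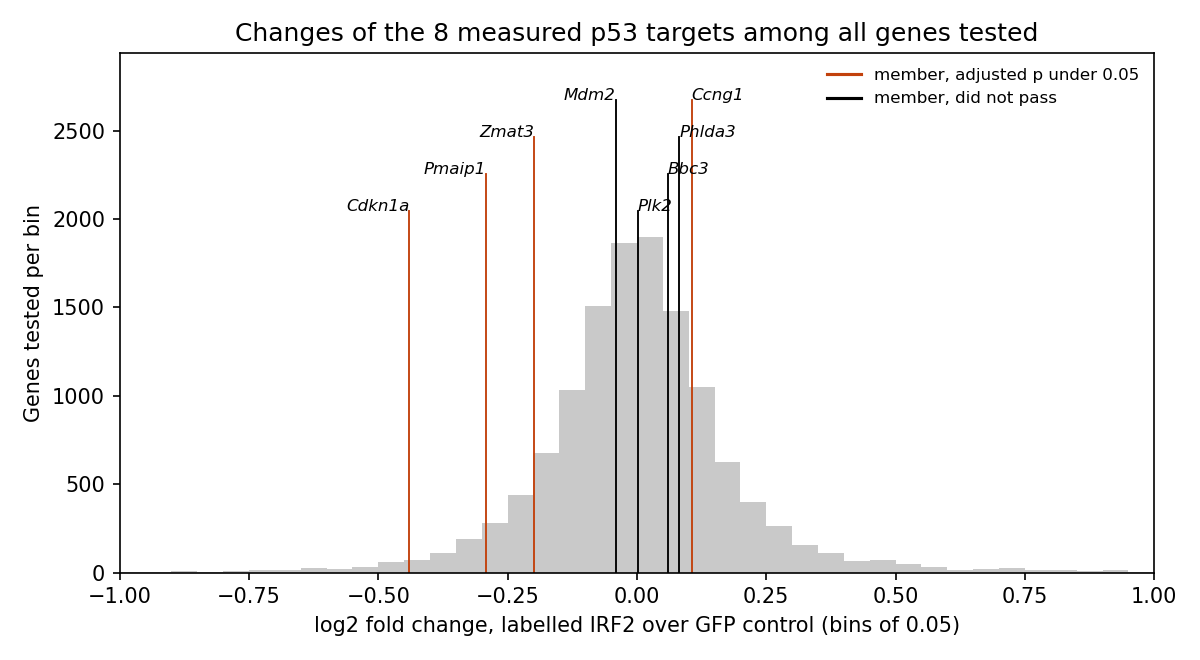
Histogram of the log2 fold changes of all 12795 genes tested in bins of 0.05 (the axis is drawn from -1 to 1), with a line for each of the 8 measured p53 targets, orange where the adjusted p was under 0.05 and black otherwise. Cdkn1a, at -0.44, is the member farthest from 0, and Mdm2, Plk2, Bbc3, Phlda3 and Ccng1 lie between -0.04 and 0.11.

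By their values over the 6 arrays, the genes nearest to Cdkn1a were Hspb8, Tnc, Grpel1, Elmod1 and Trmt1. Genes with provisional symbols, such as those of clones or predicted genes, were left out of this search. The measure was the root mean square difference of log2 values centred on each gene's own mean, and it ran from 0.02 to 0.03 for these 5 genes. This measure takes in the size of the change, so it picks genes that change nearly as much as Cdkn1a. The log2 fold changes of the 5 genes, between -0.45 and -0.42, are therefore no separate result. None of them is on the lists of p53 targets or regulators used here, which hold few of the genes tested.

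Other p53 targets also changed in both directions. Of 38 listed genes, 37 had a named probe set (Fdxr was not analysed here) and 33 passed the filter; Fas, Eda2r, Sfn and Rprm lay under it. Of these 33, 17 passed the test, 6 higher and 11 lower, again beside the 36.3% of all genes, with a median log2 fold change of 0.02. Its sign turned in 3 of the alternatives. Perp, a gene of desmosomal adhesion and cell death, fell most: it read 401, 436 and 417 on the GFP control arrays and 257, 268 and 262 on the arrays labelled IRF2 (log2 fold change -0.67, SE 0.04, adjusted p = 1.77e-09). Gadd45a, a DNA damage and growth arrest gene, rose most, from 145, 145 and 146 to 211, 217 and 229.6 (log2 fold change 0.59, SE 0.04, adjusted p = 3.36e-08). Ddit4, an inhibitor of the mTOR kinase complex, rose by 0.31 (SE 0.04) and Abhd4, a lipid hydrolase gene, by 0.26 (SE 0.03; 0.14 in its other probe set). Btg2, Pml and Apaf1 were the other genes that rose in their brightest probe sets, by 0.21, 0.21 and 0.15. The other probe set above the filter gave -0.14 for Btg2 and -0.03 for Pml, neither of which passed, and 0.21 for Apaf1, which did. The other 10 that fell were Plk3, Tigar, Dcxr, Aen, Ddb2, Polk, Trp53inp1, Ckap2, Slc19a2 and Epha2. Their brightest probe sets gave log2 fold changes between -0.30 and -0.12. In the test of probe sets, the only Trp53inp1 probe set above the filter did not pass (adjusted p = 0.0506). Nor did 2 of the 3 of Slc19a2 and 1 of the 4 of Aen. Those of Tigar and Ddb2 all passed as lower, down to -0.43 and -0.38.

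Regulators of p53 were examined next, in a list of 18 genes of which 15 were tested. Of these, 5 rose and 2 fell (median log2 fold change 0.09), beside 16.5% of all genes tested that rose and 19.8% that fell; Trp63 and Trp73, the relatives of p53, lay under the filter, at means of 9.11 to 10.1 in their brightest probe sets. Mdm4, the partner of Mdm2 in holding p53 down, read 119, 111 and 115 on the GFP control arrays and 126, 116 and 128 on the arrays labelled IRF2. It did not pass (log2 fold change 0.10, SE 0.05, adjusted p = 0.166), and its 3 probe sets above the filter ran from -0.15 to 0.10, none of which passed. It passed under none of the 14 alternatives (adjusted p 0.0663 to 0.965), and the mean of its probe sets gave a log2 fold change of 0.0048. Its remaining probe set, at 8.72 ± 0.156 and 9.27 ± 0.540 (SD, n = 3 each), lay under the filter. Ppm1d, a phosphatase gene that p53 induces and that switches off the damage signal, fell with Cdkn1a: it read 184, 165 and 172 against 141, 132 and 129 (log2 fold change -0.38, SE 0.05, adjusted p = 2.61e-05), and its other probe set gave -0.20. The damage kinase gene Atm also fell, by 0.28 (SE 0.06), and its partner kinase gene Chek2 rose by 0.32 (SE 0.05).

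Cdkn2a, the locus of the p53-stabilising protein ARF and of the cell cycle inhibitor p16, had the largest rise of the regulators. It read 37.9, 59.98 and 69.9 on the GFP control arrays and 96.6, 96.0 and 99.5 on the arrays labelled IRF2, without overlap, and which transcript of the locus the probe set reads is not known here. The controls were spread widely, with the replicate 1 array lowest. The log2 fold change was 0.85 (SE 0.15, adjusted p = 3.44e-04), and 0.59 without that array. Hipk2, a kinase gene that acts on p53, rose by 0.32 (SE 0.03) in its brightest probe set, but by 0.14 in the mean of all its probe sets, and its 7 probe sets above the filter ran from -0.09 to 0.32. Trp53bp2 and Trp53bp1, which encode p53-binding proteins, rose by 0.18 and 0.13 (SE 0.04 and 0.03) in their brightest probe sets; the 4 probe sets of Trp53bp1 above the filter ran from -0.25 to 0.38.

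The BCL2 family, on which NOXA and PUMA act, was set beside them. Of 12 genes, beside 16.5% of all genes tested higher and 19.8% lower, 5 rose and 1 fell (Bcl2l2, -0.15, SE 0.04, a call lost in the mean of probe sets and without the replicate 3 array labelled IRF2), with a median of 0.04. Members of opposite roles rose: Bcl2 (0.34, SE 0.07) and Bcl2l1 (0.19, SE 0.03), which keep cells alive, and Bcl2l11 (0.30, SE 0.04), Bid (0.29, SE 0.04) and Bok (0.21, SE 0.03), which promote death. Bcl2l11, the gene of the BH3-only protein BIM, read 194, 189.6 and 182 on the GFP control arrays and 224, 239 and 232 on the arrays labelled IRF2. Its 5 probe sets above the filter ran from -0.12 to 0.37, and the mean of its probe sets gave 0.17. Bcl2 and Bcl2l1 each passed in 1 of their 3 probe sets above the filter when each was tested alone, and the other Bcl2 probe sets gave 0.10 and 0.16.

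Cdkn1a and Pmaip1 are also known to answer to the integrated stress response, in which the factor ATF4 and its partners raise amino acid and stress genes, so a list of 12 such genes was set beside them. Of the 12, 7 fell and 0 rose in the limma test, beside 19.8% of all genes tested lower and 16.5% higher, 1 being higher and 8 lower at an unadjusted p under 0.05 (median log2 fold change -0.12); under quantile normalization, the stricter filter or without the replicate 3 GFP control array, 1 rose. Atf3, a stress-induced factor gene, read 246, 228 and 242 on the GFP control arrays and 169, 189 and 161 on the arrays labelled IRF2 (log2 fold change -0.47, SE 0.05, adjusted p = 4.93e-06). Cebpb (-0.33, SE 0.03), the folate enzyme gene Mthfd2 (-0.33, SE 0.03) and the phosphatase subunit gene Ppp1r15a (-0.26, SE 0.05) fell as well. Ddit3, Atf4 and Asns fell by 0.14, 0.10 and 0.09 in their brightest probe sets. Above the filter, the 3 probe sets of Atf4 ran from -0.47 to -0.10, and 2 of them passed as lower when tested alone. The 2 of Asns gave -0.20 and -0.09, and both passed. The other Ddit3 probe set gave -0.0054 and did not pass. Sesn2, which stands on this list and among the p53 targets, did not pass (0.04, SE 0.07, adjusted p = 0.690). A link between the changes on this list and the falls of Cdkn1a and Pmaip1 was not tested.

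**Figure D4:**
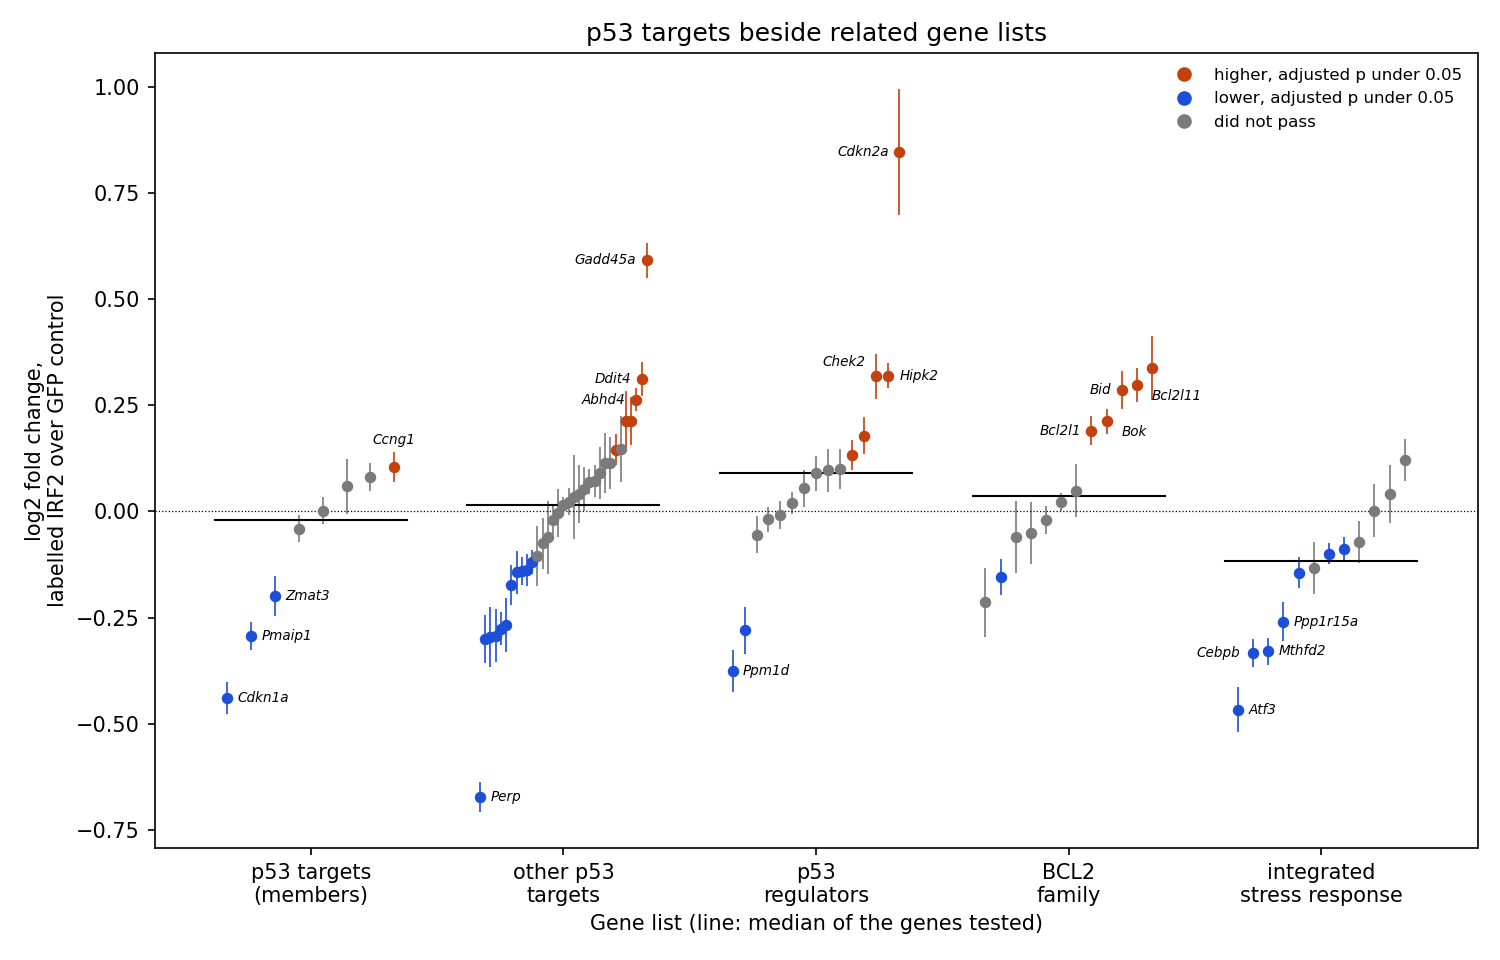
Log2 fold change (labelled IRF2 over GFP control) of every tested gene of 5 lists, with the SE as vertical bars and the list median as a horizontal line; orange points rose, blue points fell and grey points did not pass at an adjusted p of 0.05. The p53 targets stand on both sides of 0 with medians of -0.02 and 0.02, and no tested integrated stress response gene is orange.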

How the data were processed

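RNA of 6 samples, 3 per group by their titles, was read on Affymetrix 3' arrays. The authors deposited 1 linear intensity per probe set and array (array medians 18.2 to 18.7). Per the submitters' processing notes MAS5 was used, in a role and version they leave out; how arrays were scaled is not stated there, and no further scaling was applied. Names came from the platform annotation in GEO, with symbols updated through a RefSeq table of GRCm38.p6; 34945 of 45037 non-control probe sets had 1 symbol, 932 had several and 9160 had none there. The probe set with the highest mean log2 value stood for a gene, and those at or under the 40th percentile (an intensity of 11.3) were left out. Each row of log2 values was modelled in limma 3.58.1 under R 4.3.3, with group as the only term, an intensity trend in eBayes and 4 residual degrees of freedom. All tests are two-sided, with Benjamini-Hochberg adjustment over all genes, or over all probe sets where so stated. The code was tested on simulated data. Precision is limited by how few arrays there are.

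The members and the lists were chosen with earlier results of these data known, so their counts support nothing independent. Named genes were every member, Mdm4, Irf2, up to 4 genes with the smallest p from each list and the 5 nearest to Cdkn1a. Those 5 were taken among genes without a provisional symbol. Other genes are named to give the called members of a list in full. Markers were listed by cell type. The alternatives were no filter, a filter at the 60th percentile, 16 added before the log, quantile normalization, no intensity trend, robust eBayes, the replicate number as a block, the mean of a gene's probe sets and leaving out each array.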

Additional observations from a re-analysis of the deposited data

How the results depend on the processing

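The falls of Cdkn1a, Pmaip1 and Zmat3 kept their direction and their call under all 14 alternatives at gene level, with log2 fold changes of -0.46 to -0.40, -0.32 to -0.27 and -0.21 to -0.17. The count of the 8 members past the threshold ran from 3 to 5, and that of all genes from 3800 to 4678. Of 590 values of 43 named genes and member probe sets under an alternative, 562 kept direction and call, 20 lost the call, 4 gained it and 4 turned in sign. The sign turned only for Plk2, at gene and probe set level alike, with -0.0228 to 0.0225 over the runs without 1 array. The median of the members was 0.0169 when a gene's probe sets were averaged and 0.0027 after quantile normalization, in place of -0.02, and that of the other p53 targets was -0.0036 with no filter and -0.0070 to 0.0195 over the runs without 1 array, in place of 0.02; the cause was not tested. Deviations of arrays with the same replicate number correlated at 0.07, -0.08 and -0.00077, so the numbers were not taken to pair the arrays. With the replicate block, 4678 genes passed in place of 4642, and the block changed no call of a named gene. The 3 arrays per group limit which small differences can be called. Whether Mdm2, Bbc3, Plk2 or Phlda3 differ by a small amount that was missed for this reason was not tested.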
